A study of Mus musculus with 18 samples.

Results

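The genes described here are 10 genes of cardiac muscle, chosen by symbol among the 34245 entries of an expression table of mouse embryos. They were kept apart as 4 atrial genes (Myh6, Myl4, Myl7 and Nppa), 2 ventricular genes (Myh7 and Myl2) and 4 genes that both kinds of chamber use (Tnnt2, Tnni3, Actc1 and Nkx2-5). RNA-seq was made from whole FVB embryos at E11.5, about midgestation, 1 library per embryo and 3 embryos per genotype. The genotypes were Dnmt3b+/+ (WT1 to WT3), Dnmt3b-/- (KO1 to KO3) and Dnmt3bCI/CI (KI1 to KI3). Dnmt3b is a DNA methyltransferase. The CI allele is a knock-in made in fertilized eggs, which carries 2 amino acid substitutions at the catalytic site in all cells, and the null allele is likewise present in all cells. The embryos came from crosses of heterozygous parents, were genotyped on yolk sac DNA, and were used only if the heart was beating. The study compared these genotypes to separate the catalytic from the other functions of Dnmt3b during embryogenesis.

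Contraction of cardiac muscle rests on the sarcomere, in which myosin heavy chains (Myh genes) with their light chains (Myl genes) pull on thin filaments of actin, while troponin makes the filaments respond to calcium. The early heart tube uses most of these genes in all of its muscle. As chambers form, the atria and the ventricles come to use different myosin chains, and natriuretic peptide is made in the atria and in the trabeculae of the ventricles. In an embryo at midgestation, skeletal muscle precursors of the somites and limbs also use some of the same genes, of which Actc1 and Tnnt2 are well known.

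All 10 genes had at least 1 read in each of the 9 libraries, and all 10 were among the 19397 genes tested, which reached at least 0.1 FPKM in at least 3 embryos. FPKM is the number of fragments scaled by the length of the gene and the total mapped, so that levels of different genes can be compared per length. The libraries rested on an estimated 38451729 to 49808777 reads, worked back from the table. Dnmt3b itself stood at 2.25, 1.62 and 2.04 FPKM in WT and at 2.45, 3.12 and 3.33 FPKM in KO, and was higher in KO by 0.57 ± 0.15 (SE) on the log2(FPKM + 0.1) scale (limma adjusted p = 0.0248). Since the targeted gene was not lower, KO stands throughout for the libraries labelled Dnmt3b-/-. A gene-level sum does not show which exons the reads came from.

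Over the 9 embryos the 10 genes varied far more than most genes, and the variation ran within genotypes. The range of a gene, its highest minus its lowest log2(FPKM + 0.1) value, had a median of 4.18 over the 10 genes and of 0.62 over all genes tested. In the 3 WT embryos alone these medians were 3.36 and 0.26. Nppa had a log2 range of 7.57, which 5 of the genes tested exceeded (0.0258%), and Myl2 a range of 7.03, which 11 exceeded (0.0567%). At the other end were Myl4 with 1.68 (8.82% of genes had a larger range) and Actc1 with 1.64 (9.47%).

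**Figure D1:**
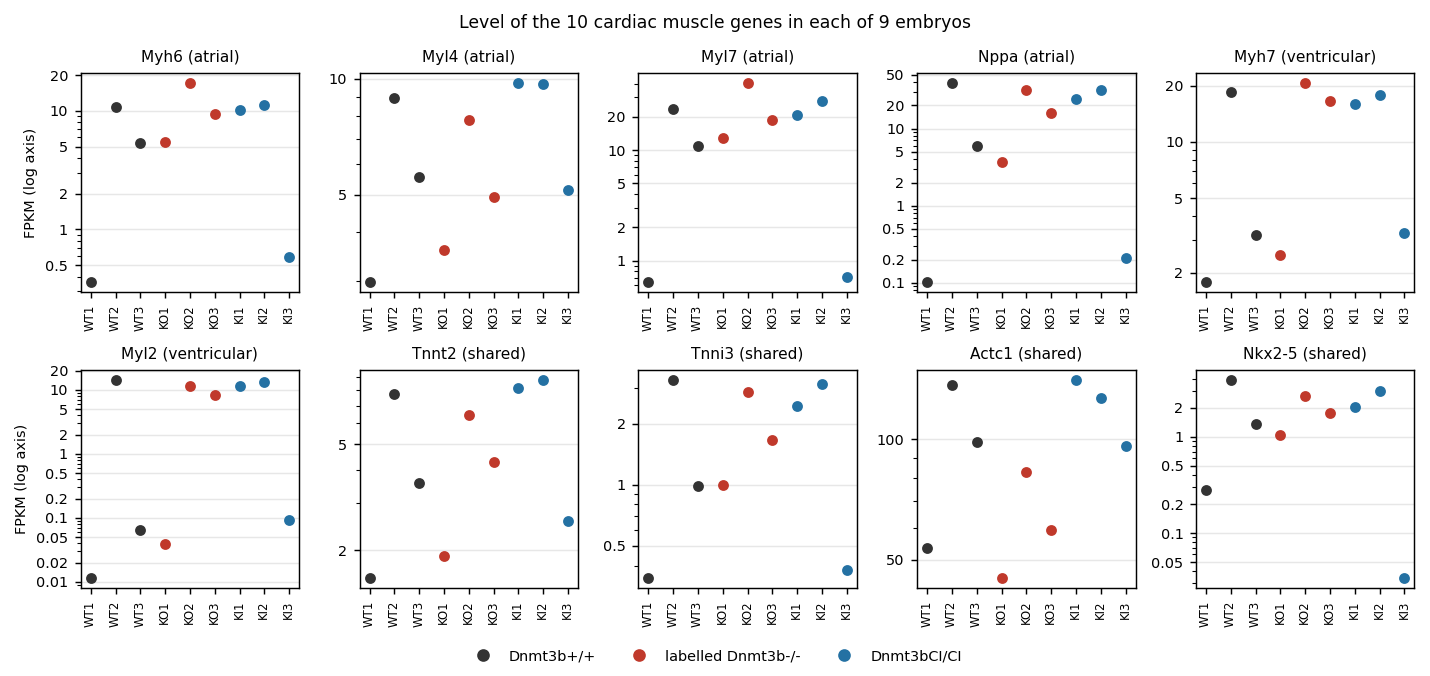
Level in FPKM (log axis) of each of the 10 genes in each of the 9 embryos, with 1 point per embryo and colours for genotype. WT1 and KI3 lay lowest for Myl7, Myh6 and Nppa, WT3 and KO1 joined them at the bottom for Myl2 and Myh7, and the points of the 3 genotypes overlapped apart from those of Actc1 between KO and KI.

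Among the atrial genes, Myl7 (ENSMUSG00000020469, chr11:5896637-5898782, minus strand, GRCm38) encodes the atrial regulatory light chain of myosin. It stood at 0.645, 23.8 and 10.9 FPKM in WT1, WT2 and WT3, at 12.9, 40.4 and 18.6 FPKM in KO1, KO2 and KO3, and at 20.6, 28.0 and 0.705 FPKM in KI1, KI2 and KI3. WT1 and KI3 were far below the other 7 embryos, with 17 and 16 reads where the others had 253 to 1014. Within WT, WT2 was 36.8-fold above WT1, and within KI, KI2 was 39.7-fold above KI3. Within KO, KO2 was 3.14-fold above KO1.

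Myh6 (ENSMUSG00000040752, chr14:54941921-54966927, minus strand), the alpha heavy chain of myosin, followed the same order. Its values were 0.363, 10.7 and 5.38 FPKM in WT, 5.51, 17.1 and 9.43 FPKM in KO, and 10.2, 11.1 and 0.59 FPKM in KI. WT1 and KI3 were again lowest, WT3 and KO1 came next, and KO2 was highest.

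Nppa (ENSMUSG00000041616, chr4:148000722-148002079, plus strand) encodes the precursor of atrial natriuretic peptide. It had 0.104, 38.7 and 5.9 FPKM in WT, 3.74, 31.6 and 16.1 FPKM in KO, and 24.4, 31.6 and 0.21 FPKM in KI. WT1 had 4 reads and KI3 had 7, whereas WT3 had 200 and KO1 had 129, and the 5 highest embryos had 564 to 1666. Reads of Nppa can also come from Gm13054, an antisense gene that shares 532 exon bases with it, because the strandedness of the counting is not given in the sources used here.

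Myl4 (ENSMUSG00000061086, chr11:104550663-104595753, plus strand), the atrial essential light chain, varied least of the 4. It was at 2.98, 8.91 and 5.56 FPKM in WT, 3.6, 7.82 and 4.95 FPKM in KO, and 9.75, 9.71 and 5.14 FPKM in KI. WT1 was lowest here too, but KI3 lay above KO1 and KO3, and the highest embryo was 3.28-fold above the lowest, against 62.6-fold for Myl7 and 47.1-fold for Myh6. Summed over the 4 atrial genes, the level ran from 4.09 FPKM in WT1 and 6.65 FPKM in KI3, through 25.7 FPKM in KO1 and 27.8 FPKM in WT3, to 97.0 FPKM in KO2.

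The ventricular genes divided the embryos differently. Myl2 (ENSMUSG00000013936, chr5:122100951-122113472, plus strand), the ventricular regulatory light chain, was at 0.0115, 14.5 and 0.0654 FPKM in WT, 0.0386, 11.3 and 8.45 FPKM in KO, and 11.3, 13.1 and 0.0934 FPKM in KI. It had 1 read in WT1, 3 in KO1, 5 in WT3 and 7 in KI3, and from 668 to 1409 reads in the other 5 embryos. Thus 4 embryos from all 3 genotypes lay at or near the limit of detection, and no embryo lay between 0.0934 and 8.45 FPKM.

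Myh7 (ENSMUSG00000053093, chr14:54970684-54994626, minus strand), the beta heavy chain, had 1.79, 18.5 and 3.17 FPKM in WT, 2.48, 20.6 and 16.5 FPKM in KO, and 16.0, 17.8 and 3.27 FPKM in KI. The same 4 embryos were lowest, at 1.79 to 3.27 FPKM, and the other 5 were at 16.0 FPKM or more. Unlike Myl2, Myh7 stayed well above the limit of detection in the low embryos. Which tissue gave these reads, heart or other muscle, was not tested. Antisense genes share exon bases with Myh7, 523 with Gm31251 and 484 with Mhrt, so that part of its reads could be theirs.

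**Figure D2:**
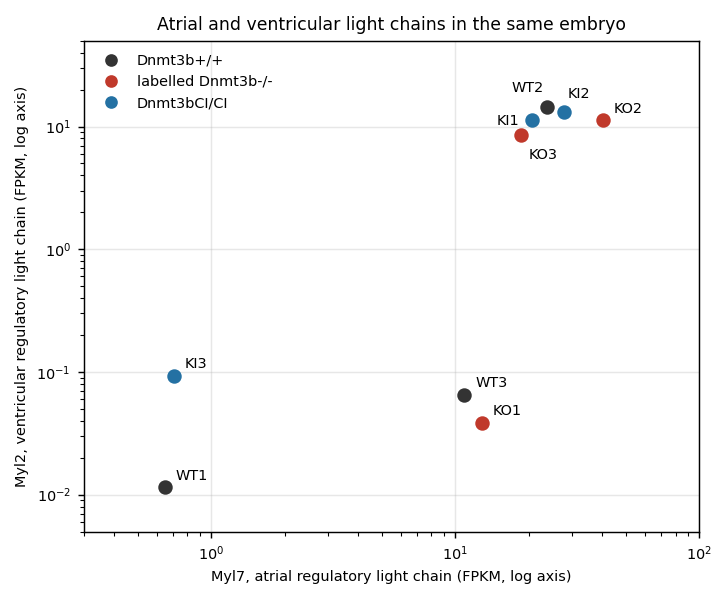
Level of Myl7 (x axis) against Myl2 (y axis), both in FPKM on log axes, with 1 labelled point per embryo. WT2, KO2, KO3, KI1 and KI2 were high in both, WT3 and KO1 had Myl7 at 10.9 and 12.9 FPKM with Myl2 at 0.0654 and 0.0386 FPKM, and WT1 and KI3 were low in both.

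Atrial and ventricular regulatory light chains, set side by side, gave 3 kinds of embryo. WT2, KO2, KO3, KI1 and KI2 held both, with Myl7 at 1.64 to 3.57 times the level of Myl2. WT3 and KO1 held Myl7 with 5 and 3 reads of Myl2, which is too few for a ratio to be precise. WT1 and KI3 were low in both. The ratio of Myh6 to Myh7, which rests on more reads in these embryos, was 1.7 in WT3 and 2.22 in KO1, and 0.572 to 0.833 in the 5 embryos with both light chains. It was 0.203 in WT1 and 0.181 in KI3. A whole-embryo library cannot tell fewer cells of a type from less RNA per cell, so these ratios hold for the RNA of the embryo and not for a chamber. How much heart tissue each library held is not given in the sources used here. A difference in a cardiac level, between embryos or between genotypes, therefore cannot be told apart from a difference in the heart tissue sampled.

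Of the genes used in all chambers, Nkx2-5 (ENSMUSG00000015579, chr17:26838664-26845009, minus strand), a homeobox transcription factor of the heart, was at 0.279, 3.94 and 1.35 FPKM in WT, 1.04, 2.65 and 1.75 FPKM in KO, and 2.03, 3.01 and 0.0341 FPKM in KI. KI3 was lowest with about 2 reads, followed by WT1 with about 21. Tnni3 (ENSMUSG00000035458, chr7:4518305-4524229, minus strand), the cardiac inhibitory troponin, stood at 0.347, 3.3 and 0.989 FPKM in WT, 0.997, 2.86 and 1.66 FPKM in KO, and 2.45, 3.12 and 0.378 FPKM in KI. WT1 and KI3 were lowest and nearly equal, and WT3 and KO1 were next.

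Tnnt2 (ENSMUSG00000026414, chr1:135836354-135852260, plus strand), cardiac troponin T, had 1.57, 7.75 and 3.58 FPKM in WT, 1.9, 6.44 and 4.31 FPKM in KO, and 8.16, 8.77 and 2.58 FPKM in KI. The 4 embryos poor in Myl2 were lowest in Tnnt2 too, but the whole spread was 5.57-fold. Actc1 (ENSMUSG00000068614, chr2:114047282-114053548, minus strand), cardiac alpha actin, was the most abundant of the 10 genes at 53.4, 137 and 98.4 FPKM in WT, 45.0, 82.6 and 59.2 FPKM in KO, and 141, 127 and 96.3 FPKM in KI. For Actc1 the lowest embryo was KO1 and not WT1, and KI3 was close to WT3. The 3 KO embryos all lay below the 3 KI embryos.

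Ordered by level in this way, WT1 was the lowest embryo for 8 of the 10 genes, against 5.6% of all genes tested. WT1, WT3, KO1 and KI3 were the 4 lowest embryos for 8 of the 10, all but Myl4 and Actc1, against 87 genes tested (0.449%), 10 of the 26 other contractile and calcium genes and 1 of the 17 cardiac transcription factors listed later. These embryos were picked out by the genes themselves, so the counts describe the 10 genes and test nothing.

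Promoter sequence is shown for Myl7, which varied 62.6-fold, and for Actc1, which varied 3.12-fold, because both hold a CArG box, the element that serum response factor binds. The windows of RefSeq on GRCm38.p6 run from 250 bases before to 50 bases after each start, and 13 windows covered the 10 genes. Each line gives the 120 bases before the start, 5′ to 3′ on the strand of the gene, with the CArG box in capitals.
Myl7: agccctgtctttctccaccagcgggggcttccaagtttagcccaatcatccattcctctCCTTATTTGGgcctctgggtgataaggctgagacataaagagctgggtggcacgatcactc
Actc1: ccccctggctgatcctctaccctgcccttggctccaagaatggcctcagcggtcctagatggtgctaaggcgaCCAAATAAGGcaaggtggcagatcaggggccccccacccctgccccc
The stretch of Myl7 is chr11:5898783-5898902 and that of Actc1 is chr2:114052876-114052995, both on the minus strand. The box lay 61 to 52 bases before the start in Myl7 and 47 to 38 bases before it in Actc1. Such a box was found in the windows of 2 of the 10 genes and of 1.81% of 27025 genes with a window. A GATA site (AGATAA, both strands) was found in Myl2 and Tnnt2, against 12.7% of genes, and an NK2 element (TNAAGTG, both strands) in Nppa and Myh7, against 13.1%. The letters TATAAA, on either strand, were found in 4 of the 10, namely Myh6, Nppa, Myl2 and Actc1, against 15.7%, and a MEF2 site in none, against 3.7%. Both matches in Myl2 lie in windows at chr5:122092474-122092773 and chr5:122092939-122093238, well before the start of Myl2 given above. The TATAAA matches of Myh6 and Actc1 lie after the RefSeq start, at bases 2 to 7 and 34 to 39, and that of Nppa at 9 to 4 bases before it. The RefSeq starts of Myh6 and Actc1 also lie inside the gene positions given above, so that the matches hold for these windows and not for every start of the gene. No matches of different motifs overlapped in these windows. Myl7 and Actc1, which share the CArG box, differed in their range and in their order over embryos.

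The comparison of KO with WT asks what changed in embryos labelled as lacking Dnmt3b. None of the 10 genes passed at an adjusted p under 0.05 in limma, while 25.8% of all genes tested passed. None had an unadjusted p under 0.05 either, as 40.0% of all genes had. In none did the WT and KO values lie apart without overlap, as they did in 38.9% of all genes. Among all genes tested 1826 were higher and 3175 lower, a split that became 2236 higher and 2044 lower under quantile normalization. The log2 fold changes of the 4 atrial genes had a median of 1.74, those of the ventricular genes 1.43 and those of the shared genes 0.27, against -0.07 for all genes tested. The errors of single genes were of the same order as these differences. Myl7 differed by 1.88 ± 1.56 (SE, adjusted p = 0.403 in limma), from a mean of 11.8 ± 11.6 FPKM in WT to 24.0 ± 14.5 FPKM in KO (SD, n = 3 each). Myl2 differed by 1.88 ± 2.49 (adjusted p = 0.611 in limma) and Actc1 by -0.57 ± 0.34 (adjusted p = 0.25 in limma). With 1 embryo left out they ran from 0.4 (without WT1) to 2.9 (without WT2) for Myl7, from 0.62 (without WT1) to 4.13 (without WT2) for Myl2 and from -0.94 (without WT1) to -0.26 (without WT2) for Actc1.

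Actc1 passed without WT1 (limma adjusted p = 0.0439). Without the 4 embryos lowest in Myl2, the direction turned for Nppa (-0.78), Myl2 (-0.56), Nkx2-5 (-0.84), Tnni3 (-0.57), Tnnt2 (-0.55) and Myh7 (-0.01), and Actc1 passed (log2 fold change -0.97, limma adjusted p = 0.0238), with the lone WT embryo left assumed to vary like the others.

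The comparison of KI with WT, which shares its WT embryos with the first, asks what changed when Dnmt3b was present without catalytic activity. Again none of the 10 genes passed in limma at an adjusted p under 0.05, and 0.144% of all genes tested passed. At an unadjusted p under 0.05 it was 0 of the 10 and 5.25% of all genes, and in none of the 10 did the groups lie apart, as they did in 13.2% of all genes. Median log2 fold changes were 0.54 for the atrial, 1.64 for the ventricular and 0.42 for the shared genes, against 0.02 for all genes tested. The largest was that of Myl2, 2.25 ± 2.49 (SE, adjusted p = 0.951 in limma), which was 0.98 without WT1 and 4.5 without WT2, and that of Nkx2-5 was -0.44 ± 1.21 (adjusted p = 0.975 in limma). Myl7 averaged 16.4 ± 14.1 FPKM in KI and 11.8 ± 11.6 FPKM in WT (SD, n = 3 each). Both groups contained an embryo with almost no Myl7.

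Between KO and KI, 0 of the 10 genes passed in limma at an adjusted p under 0.05, against 27.9% of all genes tested, and 1 had an unadjusted p under 0.05, against 41.9%. Over all genes tested 1882 were higher and 3525 lower in KO, or 2840 and 2281 under quantile normalization. The gene with the unadjusted p under 0.05 was Actc1, at 62.3 ± 19.0 FPKM in KO and 121 ± 22.7 FPKM in KI (SD, n = 3 each), a log2 difference of -0.99 ± 0.34 (SE, adjusted p = 0.0615 in limma). Actc1 was also the only one of the 10 whose groups did not overlap between KO and KI. This held for 46.2% of all genes tested, and 29.5% were lower in every KO than in every KI embryo. Its adjusted p ranged from 0.0147 to 0.165 over the alternatives and was 0.0231 without WT1 and 0.0349 without WT2. These WT embryos do not enter the difference itself, but bear on the estimate of the spread and on which genes were tested. The log2 differences of Myh6 (1.18 ± 1.34, SE), Myl7 (1.46 ± 1.56), Nppa (1.01 ± 2.2), Tnni3 (0.18 ± 0.88) and Nkx2-5 (0.9 ± 1.21) were positive. Without KI3 alone they turned negative, at -0.14, -0.17, -1.15, -0.68 and -0.52 in this order.

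**Figure D3:**
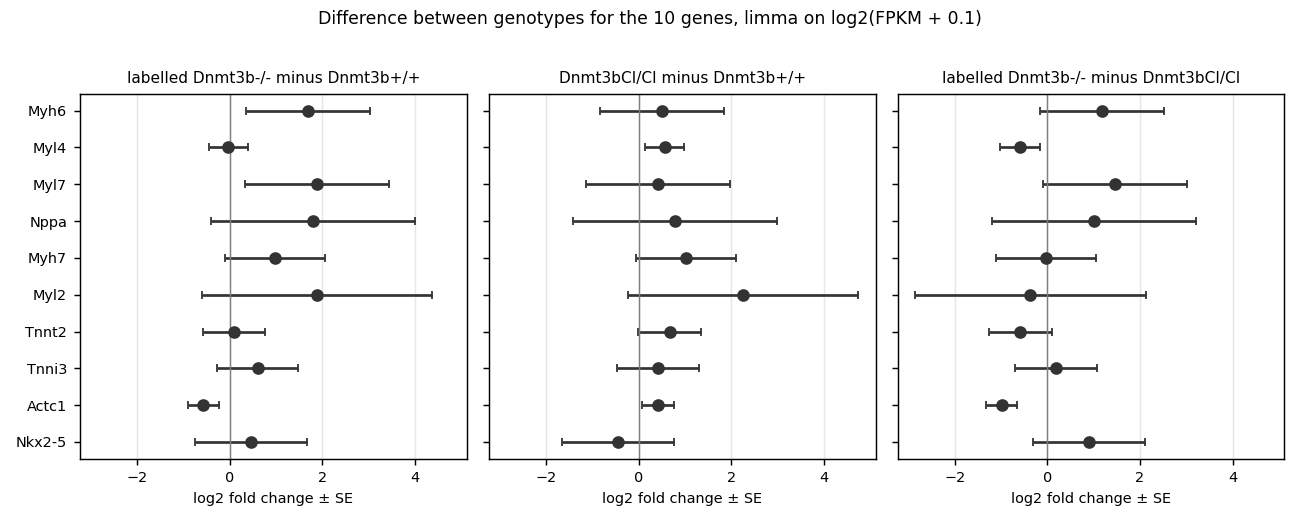
Log2 fold change of each of the 10 genes in the 3 comparisons, on the log2(FPKM + 0.1) scale, with points for the limma estimate and bars for its SE. The bars were widest for Myl2 (SE 2.49) and Nppa (SE 2.2) and narrowest for Actc1 (SE 0.34), and no gene passed at an adjusted p under 0.05.

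The standard error shows how little 3 embryos per genotype could resolve here. Its median was 1.15 on the log2 scale over the 10 genes and 0.12 over all genes tested. A change of the size of the Actc1 difference would therefore not have been detectable in Myl7, Nppa or Myl2.

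**Figure D4:**
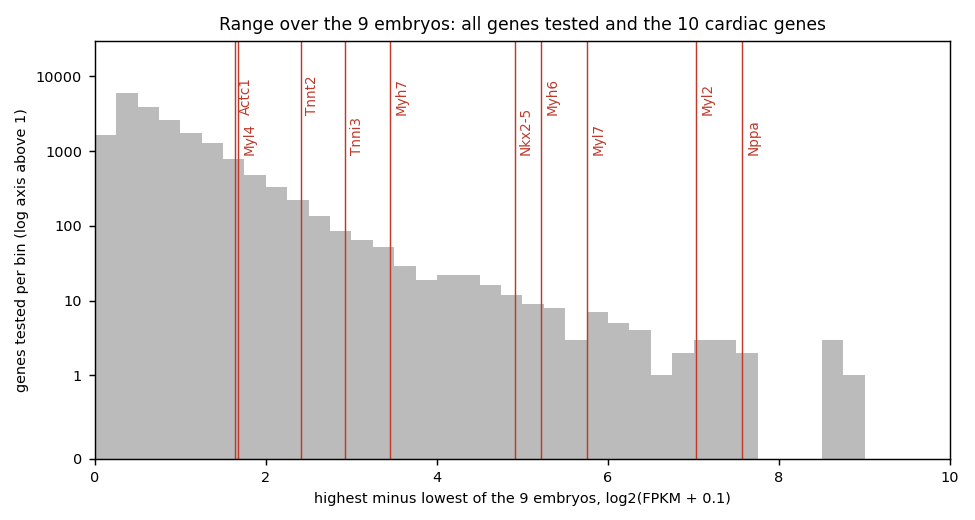
Distribution over all genes tested of the log2 range over the 9 embryos (x axis, highest minus lowest log2(FPKM + 0.1); y axis, genes per bin, logarithmic above 1), with a line for each of the 10 genes. Actc1 and Myl4 lay nearest to the bulk of genes and Myl2 and Nppa farthest from it.

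The ratio of atrial to ventricular chains was compared between genotypes on the log2 scale with a two-sided exact permutation test, whose smallest possible p is 0.1 with 3 embryos per group. For Myh6 to Myh7 the mean was -0.78 ± 1.53 in WT, 0.03 ± 1.01 in KO and -1.27 ± 1.04 in KI (SD, n = 3 each). The difference was 0.8 for KO minus WT (exact p = 0.5), -0.49 for KI minus WT (exact p = 0.7) and 1.29 for KO minus KI (exact p = 0.3). With 1 embryo left out these ran from 0.04 (without WT1) to 1.57 (without WT3), from -1.25 to 0.28 (without WT3) and from 0.69 to 1.71. For Myl7 to Myl2 the differences were -0.85 (exact p = 1.0), -3.01 (exact p = 0.4) and 2.16 (exact p = 0.5), in the same order. They ran from -3.15 to 0.52 (without WT3), from -4.97 (without WT2) to -1.63 (without WT3) and from -0.14 (without KO1) to 3.48 with 1 embryo left out. All adjusted values over these 6 tests were 0.75 or more, and the groups overlapped in each. The Myl7 to Myl2 ratio of WT1 rests on 1 read of Myl2, and that of KO1 on 3.

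Genes outside the 10 were set beside them as lists, of which the other contractile and calcium genes of the heart are the nearest. In KO against WT, 0 of these 26 genes rose and 6 fell in limma (9.41% and 16.4% of all genes tested), with a median log2 fold change of -0.21. Those lower by at least 2-fold were Myom2, a protein of the sarcomere's M-band (log2 fold change -2.2 ± 0.31, SE, adjusted p = 0.00277 in limma), sarcolipin or Sln, which restrains the calcium pump (-2.17 ± 0.28, adjusted p = 0.00203), and Casq2, which stores calcium (-1.38 ± 0.22, adjusted p = 0.00437). Skeletal muscle uses these 3 as well. Estimates within this list went in both directions. Its 2 genes named below for likeness to the atrial or ventricular mean had positive estimates with wide errors. They were Mybpc3 (2.1 ± 1.93, SE, adjusted p = 0.455 in limma) and Myl3 (1.38 ± 1.68, adjusted p = 0.579). The most abundant of the list, the calcium pump Atp2a2 (0.2 ± 0.1, adjusted p = 0.179 in limma) and the tropomyosin Tpm1 (-0.14 ± 0.08, adjusted p = 0.214), did not pass. Without WT3, 3 of the 26 genes passed in place of 6.

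Cardiac transcription factors were 17 genes, of which 1 rose and 4 fell in KO against WT, with a median log2 fold change of -0.05. These counts are near the 9.41% and 16.4% of all genes tested that rose and fell. The balance of directions was not stable, with 2 higher and 2 lower under quantile normalization, 4 and 3 without KO1, and 3 and 2 without KI2. Tbx2, a repressor of chamber genes in the atrioventricular canal, was the 1 that rose, from 15.5 to 20.8 FPKM in WT to 26.9 to 28.0 FPKM in KO (log2 fold change 0.55 ± 0.11, SE, adjusted p = 0.00865 in limma). Mef2c, a regulator of cardiac and skeletal muscle genes, fell by 1.1 on the log2 scale (SE 0.15, adjusted p = 0.00229 in limma). Nr2f2, a factor of atrial identity also used in many other tissues, had a log2 fold change of -0.05 ± 0.07 (adjusted p = 0.63 in limma). The count passing was 3 in place of 5 when WT3, KO2, KO3 or KI1 was left out.

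Among the 20 skeletal muscle genes, 15 passed. In KO against WT, 14 fell, each by at least 2-fold (3.38% of all genes tested), and 1, Actn3, rose, with a median log2 fold change of -1.37. Among the examples were Tnni2, the fast troponin I (log2 fold change -1.98 ± 0.21, SE, adjusted p = 0.00073 in limma), Tnnt3 (-1.81 ± 0.27, adjusted p = 0.00337), the embryonic and perinatal heavy chain Myh8 (-2.01 ± 0.41, adjusted p = 0.0108) and Mymk, which acts in fusion of muscle cells (-1.99 ± 0.34, adjusted p = 0.00563). The most abundant, Acta1 and Mylpf, differed by -1.17 ± 0.25 and -1.61 ± 0.3 (adjusted p = 0.0127 and 0.0081 in limma). Summed, the list was at 118 to 184 FPKM in WT, 43.9 to 101 FPKM in KO and 190 to 201 FPKM in KI. Without KO2, 9 genes passed in place of 15. Skeletal muscle precursors use Actc1 too, and the part of the skeletal muscle genes in the level of Actc1 was not tested.

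The remaining lists are read against the 9.41% of all genes tested that rose and the 16.4% that fell. Of 8 smooth muscle genes 0 rose and 2 fell in KO against WT, Myh11 (log2 fold change -1.5 ± 0.44, SE, adjusted p = 0.0374 in limma) and Acta2 (-0.84 ± 0.19, adjusted p = 0.0165), with a median of -0.29 over the list, while Smtn was at -0.15 ± 0.09 (adjusted p = 0.243). None of them passed without WT3. Of 8 endothelial and endocardial genes 1 fell, Nfatc1, a factor of the endocardium of the valves (-1.31 ± 0.11, adjusted p = 0.00035 in limma), and the median was -0.09. The vascular genes Cdh5 (-0.12 ± 0.07, adjusted p = 0.247 in limma) and Tie1 (-0.07 ± 0.11, adjusted p = 0.694) did not pass. Of 6 epicardial genes none passed in limma, and 0 had an unadjusted p under 0.05, against 40.0% of all genes. The median was -0.35, and the most abundant were Aldh1a2 (-0.41 ± 0.33, adjusted p = 0.401) and Tbx18 (-0.03 ± 0.16, adjusted p = 0.919).

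In KI against WT, 0 genes of any of these lists passed in limma (0.144% of all genes tested). At an unadjusted p under 0.05 were 1 contractile gene, 2 transcription factors, 1 smooth muscle gene and 1 endothelial gene, counts near the 5.25% of all genes. The medians were 0.39, 0.1, 0.36, 0.22, 0.17 and 0.46 for the contractile, transcription factor, skeletal, smooth, endothelial and epicardial lists. In KO against KI, 9 contractile genes fell and 0 rose (18.2% and 9.7% of all genes tested), 3 transcription factors rose and 4 fell, and 14 skeletal muscle genes fell and 1 rose. In the same comparison 3 smooth muscle, 4 endothelial and 0 epicardial genes fell and none rose. Without KO3 or without KI1 the smooth muscle count was 1 and the endothelial count 2. The medians were -0.58, -0.01, -1.72, -0.59, -0.28 and -0.65 in the order given.

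**Figure D5:**
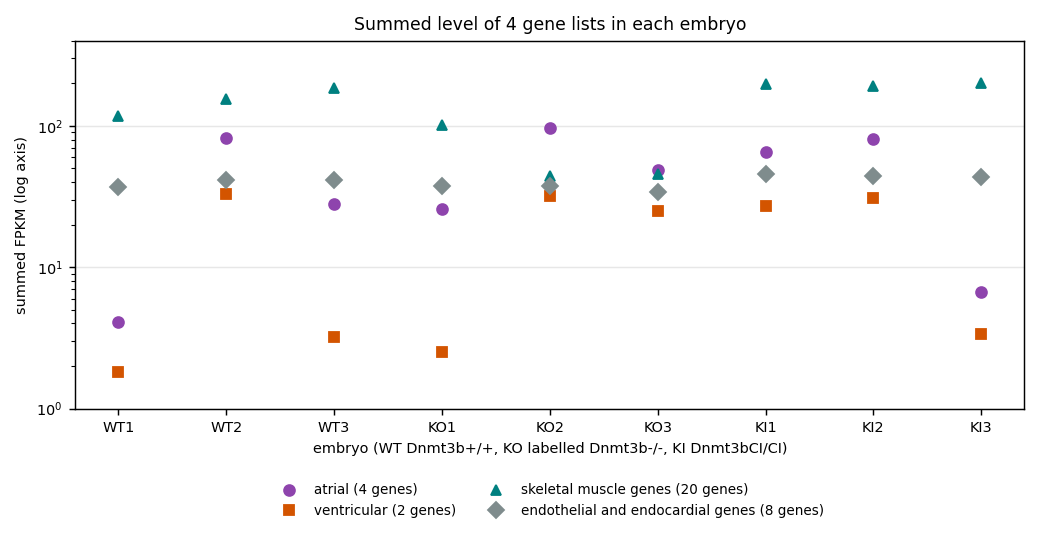
Summed level in FPKM (log axis) of the 4 atrial, 2 ventricular, 20 skeletal muscle and 8 endothelial and endocardial genes in each embryo. The atrial and ventricular sums varied 23.7-fold and 18.3-fold over embryos of every genotype, the skeletal muscle sum was lowest in the KO embryos, and the endothelial and endocardial sum varied 1.35-fold.

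Summed levels of the other lists varied less over the 9 embryos than the atrial sum (23.7-fold) and the ventricular sum (18.3-fold). The sum of the 4 shared genes varied 3.13-fold, that of the other contractile and calcium genes 1.81-fold (99.7 to 181 FPKM) and that of the cardiac transcription factors 1.42-fold (65.7 to 93.4 FPKM). Abundant genes carry these sums, such as Actc1 with a mean of 93.2 FPKM over the 9 embryos, Atp2a2 with 35.5 FPKM and Tpm1 with 30.0 FPKM, and single genes of the lists varied far more, among them Nkx2-5 (115-fold), Tnni3 (9.5-fold) and Myl3 (31.8-fold). The endothelial and endocardial sum ran from 34.1 to 45.9 FPKM. The epicardial sum ran from 10.6 to 26.5 FPKM and was 21.5 FPKM in WT1 and 19.9 FPKM in KI3, and the smooth muscle sum ran from 41.6 to 86.3 FPKM. These lists are also used by vessels, limbs and body wall, so that they do not mark the heart alone. Among the other contractile genes, Mybpc3, the cardiac myosin-binding protein C, had 1 read in WT1 and 2 in KI3. It had 159 in WT3, 193 in KO1 and 1007 to 1635 in the others. Mybpc3 is named as one of the genes most like the atrial mean, so that its low reads in these 2 libraries follow from that choice. Atp2a2 (31.9 and 30.8 FPKM) and Tpm1 (28.2 and 31.2 FPKM) of the same list were not missing in WT1 and KI3.

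By likeness over the 9 embryos, the genes nearest to the atrial mean, among 12786 genes averaging at least 1 FPKM, were Gm13054 (Pearson r = 0.99), Mybpc3 (0.986), the small heat shock protein gene Hspb7 (0.972), Casq1 (0.964) and Kdm5d (0.949). The antisense gene Gm13054 shares bases with Nppa, and Kdm5d lies on the Y chromosome. For the ventricular mean they were Myl3 (r = 0.994), Mhrt (0.992), Gm29015 (0.989), Sh3bgr (0.978) and Popdc2 (0.977), of which Mhrt and Gm29015 are antisense genes that share 484 and 142 exon bases with Myh7. Myl3, the ventricular essential light chain, was at 0.34, 9.67 and 0.387 FPKM in WT, 0.405, 10.1 and 6.97 FPKM in KO, and 7.55, 8.26 and 0.318 FPKM in KI. It was thus low in the same 4 embryos as Myl2. Each r rests on the few embryos that stand apart and is given as a description.

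Kdm5d, which had 0 reads in WT1 and KI3 and 944 to 1456 reads in the other 7 embryos, was the only Y-linked gene of the 10 genes most alike. WT1 and KI3 also had Xist at 63.2 and 45.3 FPKM, against 0.0103 to 0.0661 FPKM in the other 7, and Ddx3y at its value for no reads. The Y-linked Eif2s3y had 0 reads in WT1 and 2 in KI3, against 912 to 1318 in the other 7. In these 9 libraries the 2 embryos with high Xist and at most 2 reads of any of these Y-linked genes were the 2 lowest in Myl7, Myh6 and Nppa. Sex and the low cardiac level therefore cannot be told apart for them. No KO embryo had high Xist (0.0378, 0.0407 and 0.0303 FPKM in KO1, KO2 and KO3). Sex was thus not balanced in KO against WT or in KO against KI, and its part in these comparisons was not tested. WT3 and KO1, low in Myl2 with Myl7 present, had Ddx3y at 5.06 and 3.77 FPKM, just above and just below the 4.0 to 4.8 FPKM of the remaining 5 embryos.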

How the data were processed

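Total RNA of 9 whole embryos (3 per genotype) was sequenced for the authors by a company as paired-end reads. Per the paper's methods, reads were trimmed, aligned with STAR to mm10, kept at a mapping quality of at least 50 and quantified in SeqMonk. The authors deposited 1 table of FPKM values on the linear scale. The annotation release and strandedness are not given in the sources used here. Genes without reads were taken to be listed at a value worth 0.9 reads, not at 0. The total of each library was estimated from that value, the commonest one after scaling by length. Reads were then worked back from exon lengths of GENCODE M21 and these estimated totals. Of values under 200 reads, 89.8% came out whole within 0.01. For Myh6, Myh7 and Nkx2-5 reads are approximate. They served to show depth and not for tests. The authors' own test with DESeq was not run, because the values are not counts. Bisulfite and lymphoma samples were not analysed here.

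The fit took the 19397 genes that reached 0.1 FPKM in 3 or more embryos, leaving out 1 entry without a name. It used limma 3.58.1 (R 4.3.3) and log2 values with 0.1 FPKM added, with genotype as the only term, all 9 embryos, a variance trend on the mean and Benjamini-Hochberg adjustment over all genes tested. A fold change on this scale understates changes of low genes. Within-embryo ratios were compared by exact permutation in scipy 1.17.1. The method was tested on simulated data. Nothing says whether the embryos shared litters, and p-values measure the spread between these embryos.

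The 10 genes and all lists were chosen with earlier results of these data known. Named beside the 10 were Dnmt3b, up to 4 genes per list that passed in KO against WT with at least 2-fold, the 2 most abundant per list, and the 5 genes most like the atrial and the ventricular mean. Actn3, Xist, Ddx3y and Eif2s3y were chosen after their values were seen. Alternatives were pseudocounts of 0.01 and 1 FPKM, no filter or 1 FPKM, median-of-ratios scaling, quantile normalization, only the 2 groups compared, no variance trend, a replicate block and each embryo left out in turn. Leaving out WT1 with KI3, or those with WT3 and KO1, was added after seeing the data and by the levels of the 10 genes themselves. Promoter windows are those of RefSeq. Positions are those of GENCODE M21 on GRCm38.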

Additional observations from a re-analysis of the deposited data

How the results depend on the processing

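Over 600 fold changes of the 10 genes under the alternatives, 527 kept their direction and side of the threshold, 64 turned direction and 9 passed with the direction kept. The cause was not tested. Of the 10 genes, in KO against KI, 1 passed (Actc1) with quantile normalization (log2 fold change -1.1), with only the 2 groups compared and without WT1 and KI3, and 2 (Actc1 and Tnnt2, at -0.67) without the 4 embryos lowest in Myl2. Without those 4, WT2 is the only WT embryo left and is assumed to vary like the others. Leaving out 1 embryo at a time gave 0 to 1 genes passing in KO against KI and in KO against WT, and 0 in KI against WT. For the lists, the count passing in KO against WT was 10 contractile genes and 8 transcription factors (4 higher and 4 lower) without the 4 embryos, and 3 transcription factors with no filter, with only the 2 groups compared or with the replicate block. It was 1 smooth muscle gene with a pseudocount of 1 FPKM, no filter, quantile normalization, the 2 groups or the block. Without the 4 embryos, 1 smooth muscle gene passed in KI against WT, and 14 contractile, 5 smooth muscle and 3 epicardial genes passed in KO against KI, where 1 epicardial gene passed with only the 2 groups compared. Leaving out 1 embryo gave 3 to 8 contractile genes, 3 to 7 transcription factors, 9 to 15 skeletal, 0 to 3 smooth muscle and 0 to 1 epicardial genes in KO against WT, and 1 to 4 smooth muscle, 2 to 5 endothelial and 0 to 1 epicardial genes in KO against KI. Quantile normalization moved the median log2 fold change of all genes from -0.08 to 0.03 in KO against KI.

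Turned directions, as log2 values, were the following. Myl4 in KO against WT was 0.00 with median-of-ratios scaling and 0.03 with quantile normalization, and Myh7 in KO against KI was 0.00 with median-of-ratios scaling. Without WT1 and KI3, KO against WT gave Nppa -0.28, Tnnt2 -0.48, Tnni3 -0.11 and Nkx2-5 -0.43, KI against WT gave Nkx2-5 0.09, and KO against KI gave Myh6 -0.14, Myl7 -0.17, Nppa -1.15, Tnni3 -0.68 and Nkx2-5 -0.52. Without the 4 embryos, KO against WT gave Nppa -0.78, Myh7 -0.01, Myl2 -0.56, Tnnt2 -0.55, Tnni3 -0.57 and Nkx2-5 -0.84. KI against WT then gave Myh6 -0.01, Nppa -0.48, Myh7 -0.13, Myl2 -0.25, Tnni3 -0.25 and Actc1 -0.03, and KO against KI gave Nppa -0.3, Myh7 0.13, Tnni3 -0.33 and Nkx2-5 -0.19. With 1 embryo left out, KO against WT ran for Myl4 from -0.43 to 0.34, Nppa -0.28 to 3.5, Tnnt2 -0.48 to 0.64, Tnni3 -0.11 to 1.36 and Nkx2-5 -0.43 to 1.27. KI against WT ran for Myh6 from -0.84 to 1.83, Myl7 -1.06 to 2.05, Nppa -1.29 to 2.95, Tnni3 -0.29 to 1.28 and Nkx2-5 -1.33 to 0.98. KO against KI ran for Myh6 from -0.14 to 1.87, Myl7 -0.17 to 2.39, Nppa -1.15 to 2.19, Myh7 -0.82 to 0.9, Myl2 -2.36 to 1.69, Tnni3 -0.68 to 0.7 and Nkx2-5 -0.52 to 1.75. The log2 ratio of Myl7 to Myl2 in KO minus WT was 0.56 with a pseudocount of 1 FPKM and -3.15 to 0.52 with 1 embryo left out, that in KO minus KI was -0.14 to 3.48, and that of Myh6 to Myh7 in KI minus WT was -1.25 to 0.28.

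The replicate numbers of the labels were not taken to pair embryos. Same-numbered embryos had a mean correlation of deviations of -0.21 for KO and WT (0.114 for other pairs), 0.046 for KI and WT (-0.022, with single same-numbered pairs from -0.065 to 0.215) and -0.096 for KO and KI (0.052). With the replicate block 3029 genes passed in KO against WT in place of 5001, with 0 of the 10. Depth did not limit Actc1, but Myl2 with 1 to 7 reads in 4 embryos allows no precise fold.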

Other observations

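WT1, WT3, KO1 and KI3 were the 4 lowest embryos for 10 of the 26 other contractile and calcium genes, for 1 of the 17 cardiac transcription factors (Tbx20), for 2 of 8 smooth muscle genes (Cnn1 and Lmod1) and for 0 of the skeletal muscle, endothelial and epicardial genes. The other 16 contractile genes had another order. The examples that follow were picked after their values were seen. Pln, the phospholamban gene, was at 0.0731, 2.03 and 0.185 FPKM in WT, 0.109, 1.69 and 1.28 FPKM in KO, and 1.81, 1.56 and 0.0754 FPKM in KI. Nppb, the gene of the B-type natriuretic peptide, was at 0.0258, 2.21 and 0.0979 FPKM in WT, 0.321, 3.76 and 2.78 FPKM in KO, and 0.742, 1.8 and 0.0999 FPKM in KI. Tbx20, a transcription factor of the heart, was at 0.172, 0.75 and 0.281 FPKM in WT, 0.209, 0.951 and 0.759 FPKM in KO, and 0.752, 0.838 and 0.13 FPKM in KI.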
